A study of Danio rerio with 8 samples.

Results

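Accessible regions of the zebrafish genome that were missing only in tp63 mutant embryos at 8 somites were described. The peaks of 4 lists were merged into union regions wherever they overlapped by at least 1 bp, and a region was selected when it held a peak in the WT list at 8 somites and in both lists at 36 hours post fertilization (hpf), but none in the mutant list at 8 somites. On chromosomes 1 to 25, without chromosome 4 from 30 Mb on, 6388 of 133688 regions were so selected, or 4.78%, out of 137841 union regions on all sequences. They are called mutant-missing at 8 somites below. Because they were chosen by the presence and absence of deposited peaks, the classes and the strength of their peaks are given as a description, with no test.

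The data were ATAC-seq peaks from whole embryos, in which the Tn5 transposase cuts open chromatin and reads pile up at accessible regions. The groups were tp63 mutant (p63mut) and WT embryos at 8 somites, and tp63 mutant and WT embryos at 36 hpf, with 2 libraries each and 8 in all. The study asked whether p63 is needed for chromatin to open at regulatory regions of epidermal genes, and the 8-somite embryos represent early segmentation. At 8 somites each library was a single embryo from heterozygous parents, genotyped after tagmentation, whereas at 36 hpf it was a small pool. The mutation is a small CRISPR-Cas9 deletion in an exon that the ΔNp63 and TAp63 isoforms share, with an early stop codon in both. Lists of peaks do not show it, and the labels of genotype were not checked against it. The instrument used for each library was not given in the sources used here, so an effect of the instrument cannot be told apart from genotype or stage.

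p63 is a transcription factor of the p53 family and a regulator of the basal layer of the epidermis. In zebrafish, ΔNp63 is expressed in the non-neural ectoderm, and embryos without it do not form a normal epidermis or fin fold. A pioneer factor binds its sites in closed chromatin and makes them accessible to other factors. The study cites earlier work in which opening of epidermal regulatory regions depended on p63 in keratinocytes and embryonic skin. It proposes a pioneer role for p63 itself. In whole embryos, which hold neural, mesodermal and other cells beside the epidermis, fewer cells of a type and less accessibility per cell cannot be told apart.

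Each group had 1 list of peaks, retained by the irreproducible discovery rate (IDR), which asks whether a peak ranks alike in both replicates. A region could therefore be missing because its signal was low, or because its rank differed between the 2 embryos or pools of a group. No list gave a value per replicate, read depth is unknown from peak lists, and the variation among embryos of a group was not analysed here. The intervals in parentheses are 95% Wilson intervals for shares. For ratios they are 95% intervals on the log scale that treat the counts as independent. Both kinds cover counting error only. The lists held 79893 peaks in mutant and 96625 in WT embryos at 8 somites, and 76556 peaks in mutant and 84703 in WT embryos at 36 hpf. The mutant list at 8 somites was thus longer than the mutant list at 36 hpf, and shorter than both WT lists.

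First, the mutant-missing regions were counted against the regions that could have been so. Of 47429 regions with a peak in the other 3 lists, the mutant list at 8 somites lacked 6388, or 13.5% (13.2 to 13.8%). Exchanging the genotypes at the same stage, the WT list at 8 somites alone lacked 2811 of 43852 regions, or 6.41% (6.18 to 6.64%). At 36 hpf, the mutant list alone lacked 5606 of 46647 regions, or 12.02% (11.7 to 12.3%), and the WT list alone 4131 of 45172, or 9.15% (8.88 to 9.41%). The remaining 41041 regions had a peak in all 4 lists. The share was highest in the mutant list at 8 somites, and the shortest list was that of the mutant at 36 hpf. Each share also depends on the length of the other lists, of which the WT list at 8 somites was the longest. Of the 18936 regions missing in exactly 1 list, 33.7% were missing in the mutant at 8 somites.

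There were 2.27 (2.17 to 2.38) mutant-missing regions for each WT-missing region at 8 somites, and this ratio moved with the length of the lists. When the 76556 strongest peaks by −log10 p-value were taken from every list, 4605 mutant-missing and 3695 WT-missing regions remained at 8 somites, a ratio of 1.25 (1.19 to 1.30). With the same length but peaks ranked by fold enrichment, 4439 regions were mutant-missing and 4499 were WT-missing, a ratio of 0.99 with an interval that includes 1 (0.95 to 1.03). At 36 hpf, the ratio of mutant-missing to WT-missing regions was 1.36 in the deposited lists, 1.10 at equal length by fold enrichment and 1.03 when −log10 p-values ranked the peaks. At equal length, all 4 shares lay between 8.67 and 10.6% by −log10 p-value, and between 9.61 and 10.7% by fold enrichment. The ratio at 8 somites was thus closer to 1 in both settings that gave the lists equal length.

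**Figure D1:**
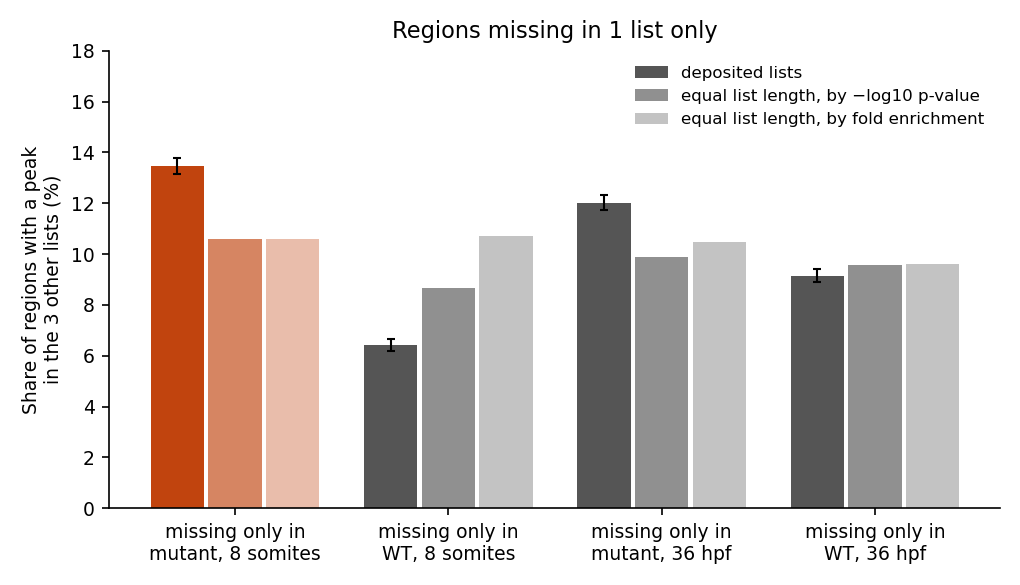
Share of the regions with a peak in the 3 other lists (y axis, percent) that 1 list alone lacked, with the mutant list at 8 somites in red and the other lists in grey. Within each group of bars the first shows the deposited lists, with a 95% Wilson interval for counting error, and the paler bars show lists of equal length (76556 peaks) ranked by −log10 p-value and, last, by fold enrichment. The share of 13.5% in the mutant at 8 somites, against 6.41% in WT, becomes 10.6% against 8.67% and then 10.6% against 10.7%.

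A stricter IDR moved the ratio the other way. With peaks of a global IDR of at most 0.01 in every list, 4630 regions were mutant-missing and 1436 WT-missing at 8 somites, or 3.22 to 1 (3.04 to 3.42). These were largely other regions, since 1335 of the 6388 deposited mutant-missing regions, or 20.9%, overlapped one of them. Most regions counted at this threshold had a mutant peak at 8 somites of a higher IDR. When the threshold was applied to the lists with a peak and any mutant peak still counted as present, 1336 mutant-missing and 381 WT-missing regions remained, with a ratio of 3.51 (3.13 to 3.93). The lists kept unequal lengths under both IDR settings, so these ratios and those at equal length differ in more than the measure of strength.

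The mutant-missing regions were weak in the lists that held them. Each peak was given a rank percentile within its list, with 100 for the strongest. The median was 42.2 (quartiles 25.6 to 58.6) in mutant embryos at 36 hpf, 46.5 (28.9 to 62.5) in WT embryos at 36 hpf and 33.8 (18.7 to 50.2) in WT embryos at 8 somites. In regions of all 4 lists, the corresponding medians were 70.4, 72.7 and 75.7. Between 25.2% (WT, 8 somites) and 44.4% (WT, 36 hpf) of the mutant-missing regions ranked above the median of a list. In regions of all 4 lists, the shares in these lists were between 75.3% (mutant, 36 hpf) and 81.8% (WT, 8 somites). The strongest decile of a list held 33 of them in mutant embryos at 36 hpf, 51 in WT embryos at 36 hpf and 13 in WT embryos at 8 somites.

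Fold enrichment over background had medians of 6.09, 5.89 and 6.91 in these lists, in the same order, against 7.72, 7.56 and 9.87 in regions of all 4 lists. The IDR was at most 0.01 in 58.4% of the mutant-missing regions in mutant embryos at 36 hpf, in 64.2% in WT embryos at 36 hpf and in 37.1% in WT embryos at 8 somites. In the last list, 24.2% had an IDR over 0.05, close to the limit of 0.1 that each list had. The regions were thus nearest to the threshold in the WT list of the stage at which the mutant list lacked them.

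The WT-missing regions at 8 somites had medians at 36 hpf within a point of those of the mutant-missing regions, 42.4 in mutant and 47.0 in WT embryos. In the 8-somite list that held them, the mutant one, they were weaker, with a median of 26.7 and an IDR of at most 0.01 in 22.98%. Regions missing only at 36 hpf were also weakest in the other list of their own stage, with medians of 30.02 in the WT list for those that the mutant lacked and 24.3 in the mutant list for those that WT lacked.

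**Figure D2:**
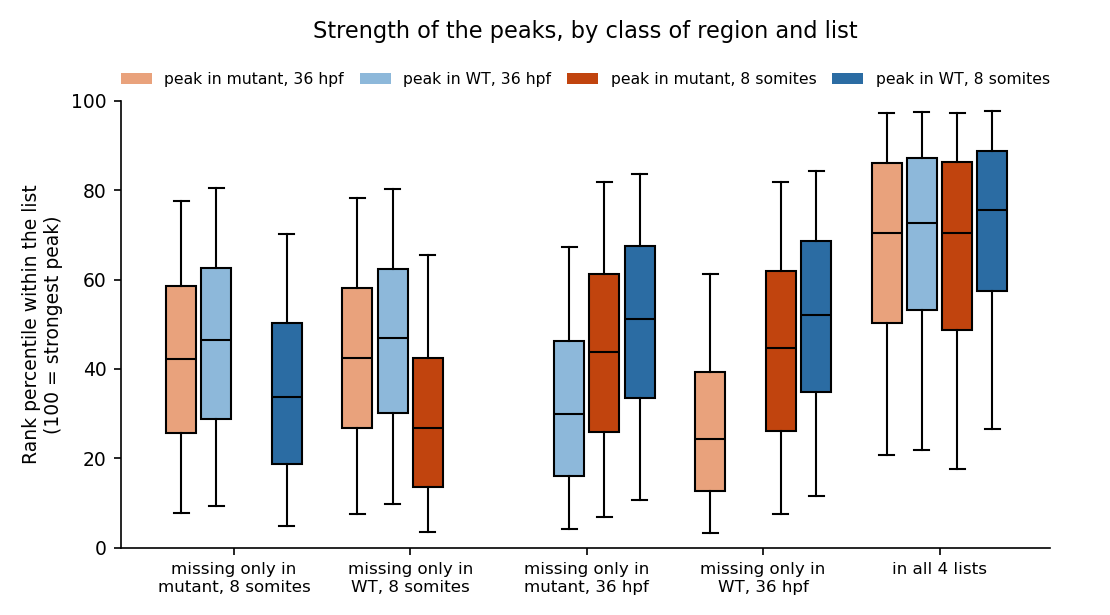
Rank percentile within its list (y axis, 100 is the strongest peak) of the peaks of each class of regions (x axis), with 1 box for each list that held a peak. Lines mark the medians, boxes the quartiles and whiskers the 5th and 95th percentiles over regions. For regions missing only in the mutant at 8 somites, the medians are 42.2, 46.5 and 33.8, against 70.4 to 75.7 in regions of all 4 lists.

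The same regions could be compared between stages and genotypes within the lists that held them. In 4232 of the 6388 mutant-missing regions (66.2%), the WT peak had a higher percentile at 36 hpf than at 8 somites, with a median difference of 10.2 points (quartiles −6.92 to 28.4). In WT-missing regions, the mutant peak was higher at 36 hpf than at 8 somites in 70.6%, with a median difference of 13.0 points. In regions of all 4 lists, the later peak was the higher one in 45.5% (WT) and 51.4% (mutant). Regions that the mutant or WT lacked only at 36 hpf had the opposite order, with the later peak higher in 24.7% (WT peaks) and 25.8% (mutant peaks). In both genotypes, a region missing in 1 list of a stage therefore tended to rank lower in the other list of that stage, a list that the selection used.

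At 36 hpf, when mutant and WT lists both held the region, the percentile of the mutant peak minus that of the WT peak had a median of −3.10 points (quartiles −14.7 to 8.18), and 42.2% ranked higher in the mutant. In WT-missing regions the median difference was −3.52 points and 41.8% ranked higher in the mutant, and in regions of all 4 lists the values were −1.05 points and 43.0%. By percentile, the mutant peak was thus the lower one at 36 hpf, by a similar median in mutant-missing and WT-missing regions. Percentiles depend on the length of a list (76556 mutant and 84703 WT peaks), and other measures had the opposite order. In mutant-missing regions, the mutant and WT medians were 6.09 and 5.89 for fold enrichment and 21.2 and 18.8 for −log10 p-value. In WT-missing regions they were 6.09 and 5.94, and 21.3 and 19.0. Over the 6388 regions, which are not replicates and share their libraries, percentiles correlated more between genotypes at 36 hpf (Spearman's rho 0.64) than between stages in WT (0.24). In regions of all 4 lists the values were 0.89 and 0.67. The other classes missing in 1 list were like the mutant-missing regions. WT-missing regions at 8 somites had 0.63 between genotypes at 36 hpf and 0.25 between stages in the mutant. Between genotypes at 8 somites and between stages, the values were 0.60 and 0.24 for regions missing only in the mutant at 36 hpf. They were 0.61 and 0.20 for those missing only in WT at 36 hpf.

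The peaks of different lists mostly had summits close together within a region, which the merging of overlapping peaks favours. The summit at 36 hpf lay at a median of 20 bp from that at 8 somites in WT, and within 50 bp in 4834 regions (75.7%). Mutant and WT summits at 36 hpf were a median of 17 bp apart, and within 50 bp in 5158 regions (80.7%). In these 2 comparisons, 236 and 154 regions had summits over 200 bp apart. The shares within 50 bp were 80.7 and 85.4% in regions of all 4 lists. In WT-missing regions at 8 somites they were 77.0% (between stages in the mutant) and 82.0%. The mutant-missing regions had a median width of 391 bp (139 to 1510 bp) and covered 2680 kb in all, against a median of 449 bp in regions of all 4 lists. In 208 of them (3.26%), at least 1 list had more than 1 peak, against 7.18% of the regions of all 4 lists and 2.88% of the WT-missing regions at 8 somites. A further peak could lie in any of 4 lists in regions of all 4 lists, but only in 3 lists in the other classes.

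To see how the share depended on the strength of a region at other times, the 58042 regions with a peak in both lists at 36 hpf were divided by their state at 8 somites. Of these, 70.7% had a peak in both genotypes at 8 somites, 11.0% in WT only (the mutant-missing regions), 4.84% in the mutant only and 13.4% in neither. The mean percentile at 36 hpf sorted them into 10 deciles. In the weakest decile 1126 of 5805 regions (19.4%, 18.4 to 20.4%) were mutant-missing at 8 somites, and 453 (7.80%, 7.14 to 8.52%) were WT-missing. In the strongest decile 13 of 5805 regions (0.22%) were mutant-missing and 10 (0.17%) were WT-missing. The mutant-missing share became smaller at each step from the weakest to the strongest decile. In the 9 weaker deciles there were between 2.06 and 2.61 mutant-missing for each WT-missing region, in no steady order along the deciles.

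The excess changed its form when the WT list at 8 somites was cut to the 79893 peaks of the mutant list, an alternative chosen after seeing the data. By −log10 p-value, 4922 regions were then mutant-missing and 3833 WT-missing, with a ratio of 1.28 (1.23 to 1.34). This ratio was 1.13 to 1.17 in the 3 weakest deciles, 1.28 to 1.47 in the next 4, 1.74 in the eighth (207 against 119 regions) and 2.02 in the ninth (95 against 47 regions). In the strongest decile, 12 regions were missing in each genotype. By fold enrichment, 4765 regions were mutant-missing and 5198 WT-missing, a ratio of 0.92 (0.88 to 0.95), and the ratio was below 1 in all deciles but the weakest (1.03) and the ninth (1.16, 92 against 79 regions). The excess among stronger regions was thus seen with peaks ranked by p-value and, in the eighth decile, turned with peaks ranked by fold enrichment.

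**Figure D3:**
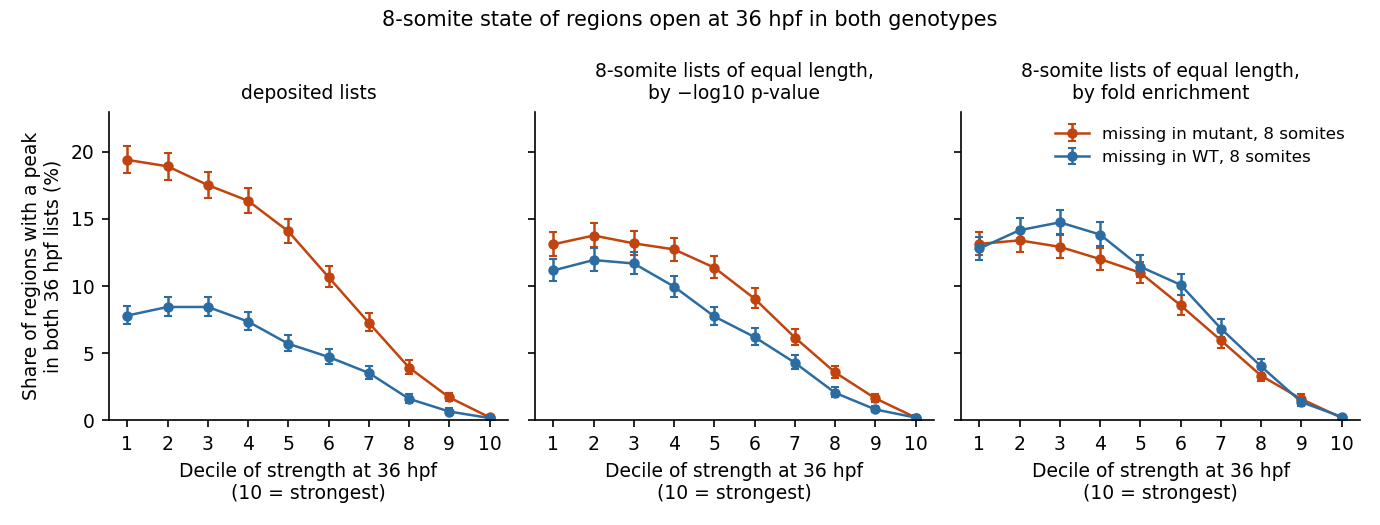
Share of the regions with a peak in both lists at 36 hpf (y axis, percent) that lacked a peak at 8 somites in the mutant only (red) or in WT only (blue), by decile of their mean rank percentile at 36 hpf (x axis), with 95% Wilson intervals for counting error. The red line lies above the blue one in the deposited lists (19.4% against 7.80% in the weakest decile), draws close to it when the 8-somite lists have equal length by −log10 p-value, and lies mostly below it by fold enrichment.

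The regions were also sorted by the peak of the other genotype at 8 somites, here in deciles of its whole list, which hold unequal numbers of these regions. Among regions with a peak in the 3 other lists, the mutant list at 8 somites lacked 782 of 1232 (63.5%, 60.7 to 66.1%) whose WT peak at 8 somites was in the weakest decile of its list, and 13 of 9153 (0.14%, 0.08 to 0.24%) of those in the strongest. The WT list lacked 497 of 1467 regions (33.9%, 31.5 to 36.3%) with a mutant peak in the weakest decile of the mutant list, and 11 of 7597 (0.14%) with one in the strongest. In the ninth decile the mutant list lacked 0.93% (0.74 to 1.16%) and the WT list 0.29% (0.19 to 0.44%), and in the eighth 3.30% (2.91 to 3.74%) and 1.04% (0.82 to 1.32%). In the deposited lists, the mutant-missing share was thus the higher one in each decile but the strongest, where the counts were 13 and 11. The selection itself used the lists that were sorted here. Their deciles are also unlike, since the WT list held 96625 peaks and the mutant list 79893. This sorting was not repeated at equal length, so no conclusion about genotype is drawn from it.

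Next, it was asked how far the mutant-missing regions lay from the peaks that the mutant did have at 8 somites. The median distance to the nearest of these was 4751 bp (quartiles 2032 and 10164 bp), and it ranged from 4 to 140954 bp. A mutant peak lay within 100 bp of 146 regions (2.29%), within 500 bp of 598 and within 1 kb of 929 (14.5%). No mutant peak lay within 50 kb of 68 regions (1.06%). WT-missing regions at 8 somites were closer to a peak of the list that lacked them (median 3650 bp, 20.3% within 1 kb). The WT list is also the denser one at 8 somites, and whether density sets the distance was not tested. Regions missing only in mutant embryos at 36 hpf had a median distance of 6335 bp and those missing only in WT embryos at 36 hpf one of 5049 bp. Leaving out the regions with a peak of the missing list within 1 kb, 5459 mutant-missing and 2241 WT-missing regions remained at 8 somites, with a ratio of 2.44 (2.32 to 2.56). A mutant peak close by was thus the exception.

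**Figure D4:**
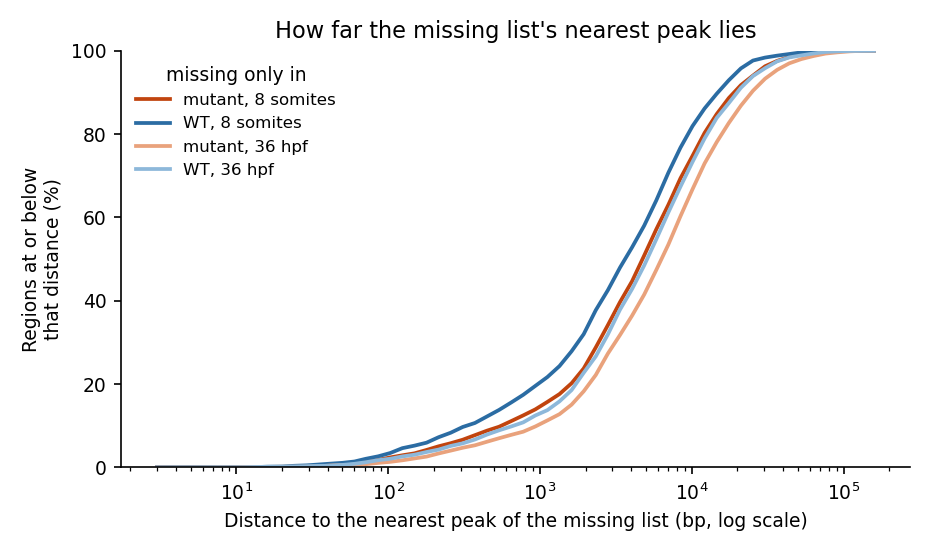
Cumulative share of the regions missing in 1 list (y axis, percent) by the distance to the nearest peak of that list (x axis, bp, log scale), with 1 line for each list. The line of the mutant at 8 somites has its median at 4751 bp and reaches 14.5% at 1 kb, and the line of WT at 8 somites, with a median of 3650 bp, lies above it.

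The edge of the rule was narrow. The mutant-missing regions closest to a mutant peak lay at chr8:19436313-19436649 (4 bp away), chr1:28380180-28380639 (8 bp) and chr20:21540426-21540869 (16 bp), in the coordinates of GRCz10. Their percentiles in the WT list at 8 somites were 42.5, 16.0 and 3.80. On the other side, the mutant peak of 8 somites overlapped the rest of its region by only 27 bp at chr1:42008228-42008936 and at chr17:28593257-28594086, and by 83 bp at chr21:34274498-34274846. Only 2 of the 41041 regions of all 4 lists had an overlap under 50 bp, and the median overlap was 343 bp.

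Some mutant-missing regions were strong in every list that held them. The 5459 regions with no mutant peak within 1 kb were ordered by the worst of their 3 percentiles. This was over 50 in 610 regions (11.2%), over 75 in 36 and over 90 in 1. Among the 2241 such WT-missing regions, it was over 50 in 181 (8.08%), over 75 in 8 and over 90 in 1. Strong regions were thus few in both classes. Positions below are those of GRCz10, and what its annotation places there, gene, exon or intron, was not analysed here.

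The strongest mutant-missing region was chr14:19802745-19803225, with a fold enrichment of 8.30 in mutant embryos at 36 hpf, 9.34 in WT embryos at 36 hpf and 10.5 in WT embryos at 8 somites. It ranked 2281 of 76556 peaks, 570 of 84703 and 1523 of 96625 in these lists, with the −log10 IDR at its maximum of 5 in each, and the nearest mutant peak of 8 somites was 1535 bp away. The lists that held it placed it among their strongest 3%, and the mutant list at 8 somites had no peak there of an IDR up to 0.1. The next was chr21:2159720-2159979, with fold enrichments of 13.2, 12.9 and 16.1, in the same order of lists, and the nearest mutant peak at 10187 bp. At chr24:5994684-5995256 the fold enrichments were 12.7, 14.4 and 13.9, and at chr9:19984131-19984561 they were 14.5, 11.9 and 16.5. These 3 regions had percentiles of at least 87.4 in each list.

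The fifth region, chr1:52094154-52094439, had fold enrichments of 12.4 in mutant and 12.1 in WT embryos at 36 hpf and 16.1 in WT embryos at 8 somites. Its nearest mutant peak of 8 somites was 44393 bp away, the longest distance among the 10 strongest regions. At chr15:39749842-39750234 the fold enrichments were 10.5, 10.2 and 11.2, and at chr21:40047506-40047800 they were 13.4, 11.4 and 14.5. In all 7 regions named so far, the −log10 IDR of the WT peak at 8 somites was at least 4.35, far inside the limit of the list.

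The last 3 of the 10 regions were less even. At chr7:71638312-71638974 the fold enrichments were 12.1, 10.5 and 12.3, but the −log10 IDR was 5 in both lists at 36 hpf, against 1.03 in the WT list at 8 somites. With an IDR near the limit of 0.1, this peak was close to being absent from the WT list at 8 somites as well, although it ranked 15303 of 96625 there. At chr4:28579863-28580572, a wide region of 710 bp, fold enrichments were low (5.30, 5.15 and 6.96) although its percentiles were between 83.9 and 89.2. At chr13:46366320-46366639 the fold enrichments were 10.6, 11.2 and 12.8, and the nearest mutant peak of 8 somites was 28405 bp away.

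WT-missing regions at 8 somites included peaks of similar percentiles. At chr13:47050507-47050864, fold enrichments were 16.3 in mutant embryos at 36 hpf, 15.1 in WT embryos at 36 hpf and 18.1 in mutant embryos at 8 somites. Its worst percentile was 96.0, against 97.0 for the mutant-missing region that is strongest by this measure. By fold enrichment, that mutant-missing region was the weaker one, with 8.30 and 9.34 at 36 hpf and 10.5 in WT embryos at 8 somites. The next WT-missing regions were chr24:41409454-41409870 (12.4, 13.5 and 14.7) and chr1:54798190-54798457 (11.5, 11.0 and 17.9). A strong peak that was absent from 1 of the 8-somite lists alone thus occurred with both genotypes.

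Finally, the position of the mutant-missing regions along the genome was examined. Their share of the regions with a peak in the 3 other lists was lowest on chromosome 3 (266 of 2330, 11.4%, 10.2 to 12.8%) and highest on chromosome 4 up to 30 Mb (179 of 1025, 17.5%, 15.3 to 19.9%). Chromosome 24 followed with 15.7% (13.96 to 17.7%). With regions weighted evenly over classes of strength at 36 hpf, the shares ran between 13.9% (chromosome 19) and 18.9% (chromosome 4). The WT-missing share at 8 somites ran between 5.37% (chromosome 21) and 8.44%, and chromosome 4 had the highest value there too. On every chromosome the mutant-missing share was above the WT-missing share, in the deposited lists, which differ in length.

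**Figure D5:**
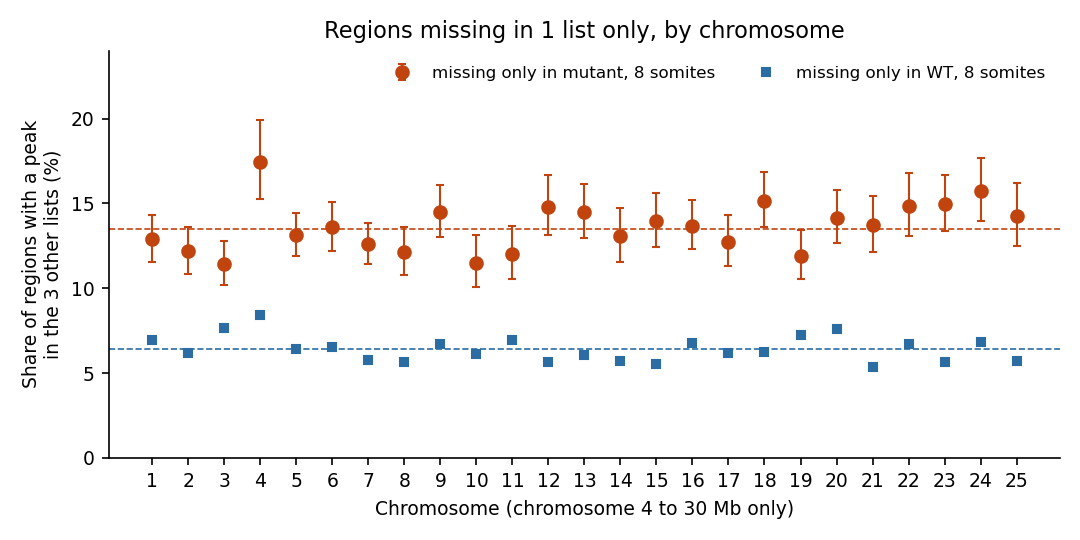
Share of the regions with a peak in the 3 other lists (y axis, percent) that only the mutant (red circles, with 95% Wilson intervals for counting error) or only WT (blue squares) lacked at 8 somites, by chromosome (x axis). Dashed lines mark the shares over all chromosomes, 13.5% and 6.41%. Chromosome 4 up to 30 Mb is highest in both, with 17.5% and 8.44%.

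Neighbours and runs were taken only among regions with a peak in the 3 other lists, and all other union regions between them were skipped. In this order, 13.5% of the regions were mutant-missing, and a share this low by itself makes single ones frequent. The next region in this order was also mutant-missing after 962 of 6387 mutant-missing regions (15.1%, 14.2 to 16.0%). After a region of all 4 lists it was so in 13.2% (12.9 to 13.6%). The corresponding values were 6.87% against 6.38% for WT-missing regions at 8 somites, 15.02% against 11.6% for regions missing only in mutant embryos at 36 hpf and 10.8% against 8.98% for those missing only in WT embryos at 36 hpf. A neighbour of the same class was thus somewhat more frequent than after a region of all 4 lists, and only for the WT-missing regions at 8 somites did the interval (5.99 to 7.86%) include the other value. Of the mutant-missing regions, 4600 (72.0%) had no mutant-missing neighbour in this order, 712 runs held 2, 94 held 3, 18 held 4 and 2 held 5. Runs of the other classes were not counted. Another mutant-missing region lay within 10 kb of 854 regions (13.4%), and the median distance to the nearest was 56.1 kb. The other classes are smaller. Their values were 6.15% and 133 kb for WT-missing regions at 8 somites. They were 10.3% and 69.6 kb for regions missing only in the mutant at 36 hpf, and 9.13% and 94.8 kb for those missing only in WT at 36 hpf.

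The mutant-missing share ran between 13.0 and 14.97% over the levels of crowding, against 13.5% over all these regions. It was 14.97% (13.96 to 16.04%) where at most 2 other regions lay within 25 kb on either side, 13.5, 13.2 and 13.0% with 3 to 5, 6 to 9 and 10 to 14 of them, and 14.4% (11.9 to 17.4%) with 15 or more. With regions weighted evenly over classes of strength at 36 hpf, it was 17.3% with at most 2 neighbours, 14.9% with 10 to 14 and 15.3% with 15 or more. Without this weighting, the WT-missing share at 8 somites was 6.56% with at most 2 neighbours and 7.61% with 15 or more. In between it was 6.78, 6.18 and 5.97%. With the weighting, the WT-missing share was 8.23, 8.44, 7.84, 7.34 and 8.45% from the least to the most crowded level. The median number of such neighbours was 6 for the mutant-missing regions, for the WT-missing regions at 8 somites and for regions of all 4 lists. Windows of 1 Mb with at least 20 regions that had a peak in the 3 other lists numbered 1193. Their median mutant-missing share was 13.0%. It was 0 in 20 windows and at least 30% in 21, with a maximum of 38.1% (8 of 21 regions, 20.8 to 59.1%) at 43 to 44 Mb of chromosome 14. This interval is that of a single window and does not allow for picking the largest of 1193. How many windows would reach these shares by counting error alone was not analysed.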

How the data were processed

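The 4 lists of ATAC-seq peaks deposited by the authors were used, 1 for each of the groups of 2 libraries. Reads had been aligned to GRCz10 by the authors. Per the submitters' processing notes, Bowtie2 and SAMtools were used. The peak caller was not given in the sources used here. The deposited values of each peak were a linear ratio of signal to background (fold enrichment), its −log10 p-value and, as a score, the −log10 of the global IDR, which was at most 0.1 in every list. Columns of the local IDR, of the q-value and of the rescaled score were not used.

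Peaks were ranked within each list by −log10 p-value (fold enrichment decided between ties) and merged into union regions at an overlap of at least 1 bp. The strongest peak stood for a list with several in a region. Members, named regions and comparisons were chosen with earlier results of these data known. Named regions were the 10 members with no mutant peak of 8 somites within 1 kb whose worst percentile was best, the 3 best such WT-missing regions, and 3 regions on either side of the rule. Alternatives were an overlap of 50% of both peaks, merging of touching peaks, no peak within 1 kb, equal list length by −log10 p-value or fold enrichment, IDR limits of 0.05 and 0.01 and all sequences. Shares have Wilson 95% intervals, and ratios have 95% intervals on the log scale that treat the counts as independent. There was no test, since each group had 1 list. Genes, sequences and motifs were not analysed here, as no reference of the GRCz10 build was used.

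Analyses used Python 3.11.15, numpy 2.4.6, pandas 2.3.3 and matplotlib 3.10.9. The union and the members were checked against bedtools 2.31.1 and were identical, and the counting was tested on simulated data.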

Additional observations from a re-analysis of the deposited data

How the results depend on the processing

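The values are the mutant-missing share at 8 somites and the ratio of mutant-missing to WT-missing regions at that stage. Merging touching peaks and using all sequences left both within their counting intervals. Requiring 50% of both peaks to overlap gave 14.3% and 2.14, no peak within 1 kb 11.7% and 2.44, equal length by −log10 p-value 10.6% and 1.25, equal length by fold enrichment 10.6% and 0.99, an IDR of at most 0.05 a ratio of 2.51 (the share stayed), an IDR of at most 0.01 14.8% and 3.22, and the same limit where a peak was present 4.26% and 3.51, with 1336 regions. Cutting only the WT list at 8 somites, chosen after seeing the data, gave 11.0% and 1.28 by −log10 p-value and 11.0% and 0.92 by fold enrichment. The setting with 50% overlap counted peaks of the other list at 8 somites in place of union regions. These were WT peaks for the mutant-missing count and mutant peaks for the WT-missing count. In the settings other than the last IDR limit, the number of mutant-missing regions (or peaks, at 50% overlap) lay between 4439 and 6520. The cause of these shifts was not tested. No paired analysis was possible because each group had 1 list built from both replicates, and for the same reason no replicate could be left out. Depth is unknown, so a missing peak is not shown to be closed chromatin.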

Other observations

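The longest 2 runs of mutant-missing regions, singled out after their values were seen, held 5 regions each. These were consecutive only among regions with a peak in the 3 other lists, since other union regions were skipped. They spanned 68.5 kb at chr15:20839102-20907565 and 274.6 kb at chr6:44471799-44746352 in GRCz10. Some 1 Mb windows were picked for their high mutant-missing share, so that their WT-missing share is only set beside it. The window of 43 to 44 Mb on chromosome 14, with 8 mutant-missing of 21 regions, had 0 WT-missing of 13 regions at 8 somites. In the window of 38 to 39 Mb on chromosome 1, 14 of 43 regions (32.6%, 20.5 to 47.5%) were mutant-missing, against 1 of 30 (3.33%) that were WT-missing. At 34 to 35 Mb of chromosome 8, the values were 13 of 39 (33.3%) and 5 of 31 (16.1%). At 8 to 9 Mb of chromosome 11 they were 10 of 27 (37.0%) and 3 of 20, and at 24 to 25 Mb of chromosome 12 they were 10 of 29 (34.5%) and 4 of 23 (17.4%).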
